A study of Mus musculus with 12 samples.

Results

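The CD3 complex carries the signal of the T cell receptor into the cell, and 9 of its chains and nearest signalling genes were followed here through 12 bulk libraries of mouse melanoma. The genes were taken by symbol from a table of 32416 gene symbols. They were Cd3d, Cd3e, Cd3g and Cd247, which encode the CD3 delta, epsilon, gamma and zeta chains, the kinases Lck and Zap70, the adaptor Lat, and the regulators Cd6 and Ubash3a. The tumours were grown under the skin of C57BL/6 mice from B16F10, a mouse melanoma line, or from B16mhgp100, a B16 derivative that carries a gp100 tumour antigen. Per the labels, each tumour had either Aoah over-expression or the Vector. There were 2 B16F10 Aoah, 2 B16F10 Vector, 4 B16mhgp100 Aoah and 4 B16mhgp100 Vector tumours. Aoah encodes acyloxyacyl hydrolase, an enzyme that removes fatty acyl chains from bacterial lipopolysaccharide. No group was left without antibody: all B16mhgp100 tumours were treated with anti-PD1, and all B16F10 tumours with anti-PD1 and anti-CTLA4. Dosing began on day 10 after inoculation for B16mhgp100 and on day 6 for B16F10, at 200 µg per dose and 2 doses per week for 4 doses, and the tumours were taken 1 day after the last dose. Tumour model, antibodies and starting day therefore change together and cannot be told apart. The host's own immune cells were present in every tumour, and the labels do not say whether the over-expressing cells are 1 clone.

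The antigen-binding chains of the T cell receptor have very short cytoplasmic tails and depend on CD3 for signalling. On engagement, Lck, a kinase of the Src family, phosphorylates the tyrosine motifs of the CD3 chains, Zap70 binds these motifs, and Zap70 in turn phosphorylates Lat, on which the further signalling complex assembles. In a tumour, transcripts of these genes are usually read as a sign of infiltrating T cells, although Lck, Zap70, Lat and Cd247 are also used by natural killer (NK) cells. A bulk library cannot tell fewer T cells from less RNA per T cell, and this applies to every level given here.

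Expression was deposited on a log2 scale that gave TPM, a transcript level scaled for transcript length and library total, once a pseudocount of 1 was removed. Between 13775 and 14791 genes reached 1 TPM in each library. TPM keeps no depth, so the number of reads behind a value is unknown. The transgene was measured at 21.8 and 23.7 TPM in B16F10 Aoah tumours, against 1.49 and 0.75 TPM in B16F10 Vector tumours. In B16mhgp100, Aoah was at 17.9, 22.5, 14.0 and 3.91 TPM in Aoah tumours, against 7.58, 0.89, 2.43 and 1.57 TPM in Vector tumours. The B16mhgp100 groups overlapped, because the library labelled B16mhgp100 Aoah 4 lay below the library labelled B16mhgp100 Vector 1. The library labelled B16mhgp100 Aoah 4 stood apart in other ways. Its 5 keratinocyte markers summed to 4401 TPM and its 5 skeletal muscle markers to 3287 TPM, its 7 melanocyte markers summed to 7802 TPM, and its median correlation with the other libraries was 0.899. In the other 11 libraries the melanocyte markers summed to between 15744 and 29292 TPM. B16F10 Vector 2 had 10.4% of its TPM in mitochondrial genes, against 2.77% to 6.38% in the others. The main results that rest on either library are also given without it.

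The genes of CD3 gamma, delta and epsilon are consecutive protein-coding genes on mouse chromosome 9. Their RefSeq promoter windows are shown because these neighbours were all highest in B16F10 Aoah tumours, that of Cd247 because the CD3 zeta chain was not, and those of Lck because it had the highest level of the set in those tumours. Each window runs from 250 bases before to 50 bases after an annotated start, 5′ to 3′ on the strand of the gene, with positions in GRCm38.p6, the build of the RefSeq table. Capitals mark matches on either strand to an E box (CAGGTG), a Runx motif (TGTGGT) or an Ets motif (GGAAGT). No capitals belong to more than 1 match. The Cd3g window is chr9:44980382-44980681 on the minus strand, the Cd3d window chr9:44981536-44981835 on the plus strand, and 854 bases separate them. The Cd3e window is chr9:45009562-45009861 on the minus strand, and the Cd247 window is chr1:165788431-165788730 on the plus strand. Lck had 2 annotated windows on the minus strand, at chr4:129573592-129573891 and at chr4:129558323-129558622.
Cd3g: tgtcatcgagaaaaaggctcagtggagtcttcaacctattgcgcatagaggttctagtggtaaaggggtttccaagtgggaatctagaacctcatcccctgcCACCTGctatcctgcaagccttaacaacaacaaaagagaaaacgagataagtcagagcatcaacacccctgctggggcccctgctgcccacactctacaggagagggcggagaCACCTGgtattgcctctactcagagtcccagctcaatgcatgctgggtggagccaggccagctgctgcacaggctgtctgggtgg
Cd3d: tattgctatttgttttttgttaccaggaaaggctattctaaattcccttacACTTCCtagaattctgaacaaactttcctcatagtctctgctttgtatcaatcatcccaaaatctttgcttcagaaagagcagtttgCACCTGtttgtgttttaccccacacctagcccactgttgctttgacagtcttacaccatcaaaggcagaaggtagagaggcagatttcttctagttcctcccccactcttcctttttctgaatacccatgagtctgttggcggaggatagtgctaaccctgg
Cd3e: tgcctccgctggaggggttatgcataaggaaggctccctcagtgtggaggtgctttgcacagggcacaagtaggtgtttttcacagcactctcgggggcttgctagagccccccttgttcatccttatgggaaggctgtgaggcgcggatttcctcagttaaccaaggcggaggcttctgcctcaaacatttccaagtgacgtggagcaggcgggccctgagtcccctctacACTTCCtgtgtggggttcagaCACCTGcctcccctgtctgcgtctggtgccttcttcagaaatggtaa
Cd247: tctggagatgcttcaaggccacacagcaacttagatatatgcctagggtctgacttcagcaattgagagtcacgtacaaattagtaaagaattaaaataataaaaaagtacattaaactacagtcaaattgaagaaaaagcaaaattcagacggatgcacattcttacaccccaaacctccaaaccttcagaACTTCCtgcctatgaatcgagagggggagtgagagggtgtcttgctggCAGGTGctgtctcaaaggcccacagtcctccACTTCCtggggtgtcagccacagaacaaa
Lck upstream window: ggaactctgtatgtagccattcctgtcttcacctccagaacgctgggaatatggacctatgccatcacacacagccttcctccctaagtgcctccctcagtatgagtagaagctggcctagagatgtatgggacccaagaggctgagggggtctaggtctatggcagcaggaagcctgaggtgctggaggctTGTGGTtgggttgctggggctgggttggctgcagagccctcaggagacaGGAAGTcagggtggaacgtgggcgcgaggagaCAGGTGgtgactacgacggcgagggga
Lck downstream window: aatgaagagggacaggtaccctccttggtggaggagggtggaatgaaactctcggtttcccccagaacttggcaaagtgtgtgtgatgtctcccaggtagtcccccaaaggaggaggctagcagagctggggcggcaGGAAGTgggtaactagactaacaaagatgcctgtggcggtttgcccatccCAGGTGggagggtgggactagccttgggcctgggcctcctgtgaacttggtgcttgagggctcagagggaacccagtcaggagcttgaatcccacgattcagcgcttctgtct

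Windows were found for 8 of the 9 genes, 11 windows in all. Cd6 had none. An E box was found in 8 of the 11 windows and in 20.2% of all 32851 windows of that table, an Ets motif in 6 of the 11 and 23.8% of all, and a Runx motif in 3 of the 11 and 16.8% of all. The 3 windows with the Runx letters belonged to Zap70, Lck and Lat. These are matches of letters in short windows and were not tested for binding.

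The CD3 gamma, delta and epsilon chains were high in B16F10 Aoah tumours and lower in each of the other 10. Cd3e, the chain on which the other CD3 subunits pair, was at 6.99 and 12.3 TPM in B16F10 Aoah tumours, against 1.58 and 0.26 TPM in B16F10 Vector tumours. In B16mhgp100 it was at 1.5, 1.12, 2.07 and 2.56 TPM in Aoah tumours, against 2.47, 0.97, 1.37 and 1.38 TPM in Vector tumours. The 2 B16F10 groups did not overlap and the B16mhgp100 groups overlapped almost entirely. Cd3g, which pairs with Cd3e, was at 14.5 and 17.1 TPM in B16F10 Aoah tumours, against 3.06 and 0.26 TPM in B16F10 Vector tumours. Cd3g levels in B16mhgp100 were 3.30, 2.09, 4.34 and 4.03 TPM in Aoah tumours, against 5.63, 1.62, 3.52 and 3.24 TPM in Vector tumours, and the highest of these 8 values was in a Vector tumour. Cd3d, the partner of Cd3e in the other heterodimer, was at 6.34 and 6.26 TPM in B16F10 Aoah tumours, against 0.56 and 0.81 TPM in B16F10 Vector tumours. Cd3d levels in B16mhgp100 were 1.05, 0.78, 1.84 and 3.56 TPM in Aoah tumours, against 1.96, 0.55, 1.08 and 1.43 TPM in Vector tumours. The 3.56 TPM came from the library labelled B16mhgp100 Aoah 4.

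Cd247, the zeta chain that carries most of the signalling motifs, followed another order. It was at 6.19 and 5.73 TPM in B16F10 Aoah tumours, against 3.50 and 2.86 TPM in B16F10 Vector tumours. Cd247 levels in B16mhgp100 were 2.87, 4.69, 4.71 and 0.84 TPM in Aoah tumours, against 5.03, 5.09, 4.96 and 6.58 TPM in Vector tumours. Aoah was thus above Vector in every B16F10 library and below Vector in every B16mhgp100 library. The highest level of Cd247 in the 12 libraries was in B16mhgp100 Vector 4, not in a B16F10 Aoah tumour.

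The kinases were also highest in B16F10 Aoah tumours. Lck was at 26.5 and 27.0 TPM in B16F10 Aoah tumours, against 6.95 and 3.40 TPM in B16F10 Vector tumours. In B16mhgp100 Lck was at 14.5, 12.2, 15.2 and 4.61 TPM in Aoah tumours, against 15.4, 12.2, 15.1 and 11.1 TPM in Vector tumours. Lck therefore stayed above 11 TPM in 7 of the 8 B16mhgp100 libraries, and the exception was the library labelled B16mhgp100 Aoah 4. Zap70 was at 6.76 and 7.73 TPM in B16F10 Aoah tumours, against 0.92 and 0.57 TPM in B16F10 Vector tumours. The B16mhgp100 values of Zap70 were 1.21, 0.94, 0.88 and 1.87 TPM in Aoah tumours, against 1.15, 0.81, 0.80 and 0.57 TPM in Vector tumours. Those 2 groups overlapped.

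Lat was at 9.72 and 10.9 TPM in B16F10 Aoah tumours, against 5.03 and 4.49 TPM in B16F10 Vector tumours. In B16mhgp100 Lat was at 2.59, 2.74, 2.65 and 6.80 TPM in Aoah tumours, against 2.49, 1.96, 2.07 and 1.62 TPM in Vector tumours. The B16mhgp100 groups were separated only by the narrow gap between 2.59 TPM in Aoah 1 and 2.49 TPM in Vector 1. Lat was the one gene of the set whose B16F10 Vector tumours both lay above all 4 B16mhgp100 Vector tumours.

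Cd6 encodes a surface receptor that modulates T cell activation, and Ubash3a encodes a suppressor of T cell receptor signalling. Cd6 was at 4.63 and 6.32 TPM in B16F10 Aoah tumours, against 0.56 and 0.11 TPM in B16F10 Vector tumours. The B16mhgp100 values of Cd6 were 1.08, 0.92, 1.90 and 0.48 TPM in Aoah tumours, against 2.22, 0.51, 1.99 and 1.10 TPM in Vector tumours. Ubash3a reached 1 TPM in only 2 libraries, at 2.94 and 4.56 TPM in B16F10 Aoah tumours, against 0.25 and 0.06 TPM in B16F10 Vector tumours. The B16mhgp100 values of Ubash3a were 0.49, 0.43, 0.50 and 0.26 TPM in Aoah tumours, against 0.71, 0.43, 0.64 and 0.37 TPM in Vector tumours. Both genes overlapped between the B16mhgp100 groups.

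**Figure D1:**
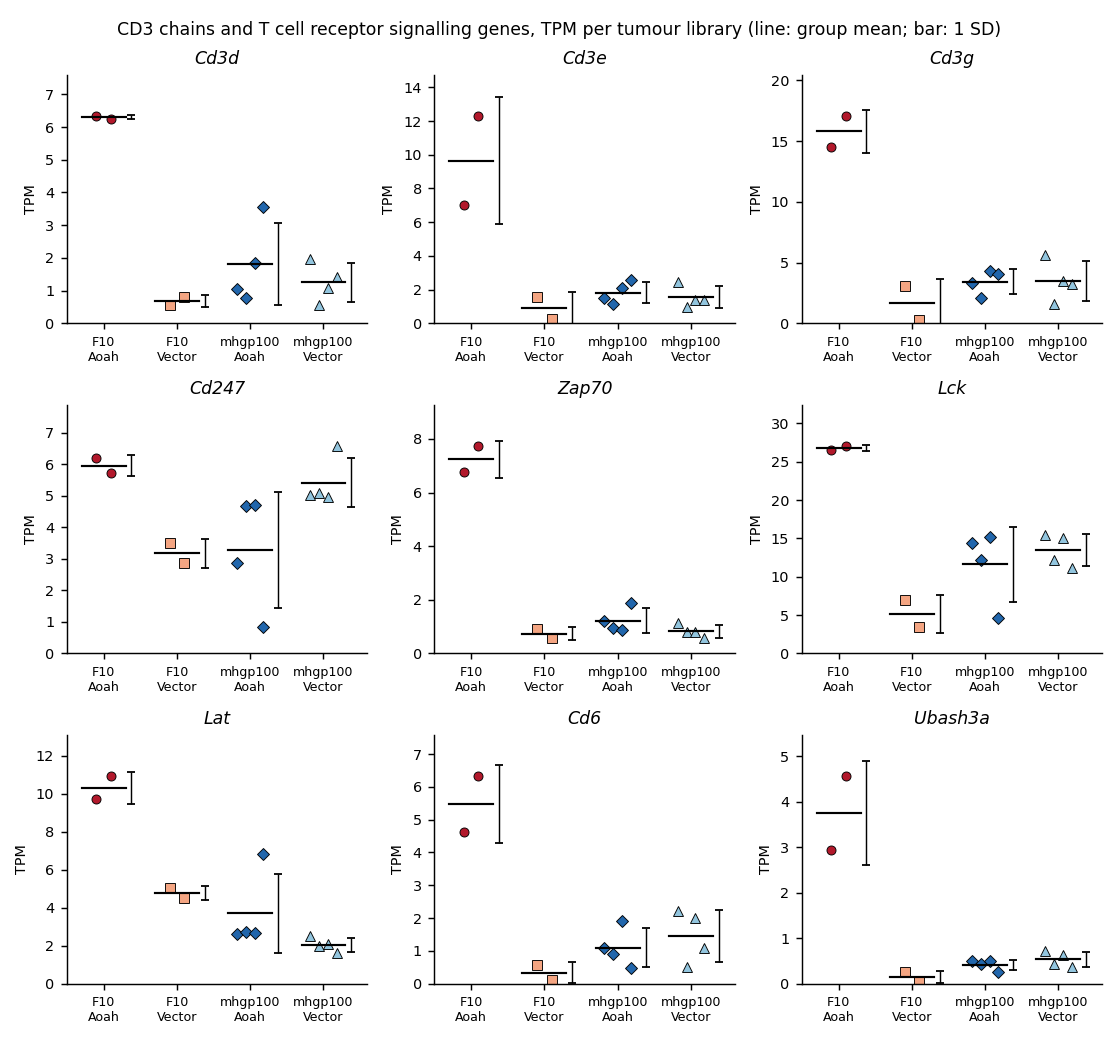
Level of each gene in TPM (linear axis from 0, own scale per gene) in the 12 tumour libraries, 1 point per library. Horizontal lines are group means and vertical bars 1 SD, clipped at 0. B16F10 Aoah libraries lie above all 10 others for 8 genes, and Cd247 is the exception.

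For 8 of the 9 genes, both B16F10 Aoah libraries lay above all 10 others. The same was true of 1699 of the 16556 genes tested over the 12 libraries, or 10.3%. Ubash3a passed the filter of 1 TPM in 2 libraries only through the B16F10 Aoah libraries, so its place among the 8 was built in. The count was also 8 when B16F10 Vector 2 and the library labelled B16mhgp100 Aoah 4 were both left out. No share over all genes is given for that smaller set of libraries, so this count has nothing to be set against. The ratio of the B16F10 group means, Aoah over Vector, ran from 1.87 for Cd247 and 2.17 for Lat, through 5.17 for Lck, 9.20 for Cd3d, 9.52 for Cd3g, 9.72 for Zap70 and 10.5 for Cd3e, to 16.3 for Cd6 and 24.2 for Ubash3a. Over B16F10 Vector 1 alone, without the library with the high mitochondrial share, the ratio was 1.70 for Cd247, 2.05 for Lat, 3.85 for Lck, 11.3 for Cd3d, 5.16 for Cd3g, 7.88 for Zap70, 6.10 for Cd3e, 9.78 for Cd6 and 15.0 for Ubash3a. The ratios of Cd3e, Cd3g, Cd6 and Ubash3a thus moved by over 1.5 times with that library. In the order of group means, B16F10 Aoah came first for every gene, with Cd247 at 5.96 ± 0.325 TPM (SD, n = 2) within the range of B16mhgp100 Vector at 5.42 ± 0.778 TPM (SD, n = 4). B16F10 Vector came last for Cd3d, Cd3e, Cd3g, Cd247, Zap70, Lck, Cd6 and Ubash3a. For all of these but Ubash3a its range overlapped that of at least 1 B16mhgp100 group. These neighbours in the order were thus not separated by more than their spread. For Lck the overlap came only from the library labelled B16mhgp100 Aoah 4, at 4.61 TPM. Every other B16mhgp100 library had Lck at 11.1 TPM or more, against 6.95 and 3.40 TPM in B16F10 Vector tumours. For Ubash3a the higher B16F10 Vector tumour, at 0.25 TPM, lay just below the lowest B16mhgp100 Aoah tumour, at 0.26 TPM.

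The design asks how Aoah changed tumours of each model under antibody treatment, and the B16F10 comparison was tested with limma on log2(TPM + 1), which understates the change of genes at low TPM. All 9 genes were kept by the filter of 1 TPM in 2 libraries. Cd3d, Zap70, Cd6 and Ubash3a passed it only through the Aoah libraries, so for these a difference was built in. No gene of the set passed an adjusted p of 0.05, in a comparison in which 42 of 14533 genes, or 0.289%, were called higher in Aoah and 8 lower. On the log2 scale Cd3g was higher in Aoah by 2.89 (SE 0.57, limma adjusted p = 0.109), Cd3e by 2.52 (SE 0.46, adjusted p = 0.0976), Zap70 by 2.25 (SE 0.27, adjusted p = 0.0571), Cd3d by 2.12 (SE 0.26, adjusted p = 0.0571) and Lck by 2.23 (SE 0.34, adjusted p = 0.0733). Cd6 was higher by 2.29 (SE 0.31, limma adjusted p = 0.0603) and Ubash3a by 2.02 (SE 0.29, adjusted p = 0.0663). Lat, at 0.97 (SE 0.25, limma adjusted p = 0.149), and Cd247, at 0.74 (SE 0.26, adjusted p = 0.230), had the smallest differences. Cd3e and Cd3g reached 1 TPM in 1 of the 2 Vector tumours, and Lck, Lat and Cd247 in both, so that only these 3 passed the filter without help from the Aoah libraries. Of these 3, 3 were higher at an unadjusted p under 0.05, where 10.9% of all genes were. The Aoah tumours lay above the Vector tumours without overlap for 3 of the 3, and for 28% of all genes tested.

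With 2 tumours a group the limma calls changed with the settings. Median-of-ratios scaling called 4 genes of the set, weights per library 2, and a spread shared over the 12 libraries 5. Over all genes, scaling called 110 higher and 19 lower, against 42 and 8 in the main fit. The number called over all genes also rose with weights per library, as given further below, and is not given for the shared spread. Leaving out a B16F10 tumour left a lone sample in this comparison, assumed to vary like the other group, so only differences are given for such fits of this comparison. Without B16F10 Vector 2, the library with the high mitochondrial share, the log2 difference of Cd3g was 2.04 and that of Cd3e was 2.00. An exact permutation test of 2 tumours against 2 cannot give a p below 0.333.

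The authors' deposited table for B16F10, fitted to counts, called 7 of the 9 genes higher in Aoah at an adjusted p under 0.05, where 666 of 14328 genes with an adjusted p, or 4.65%, were called higher. In the authors' deposited table the log2 fold change was 4.67 for Ubash3a (SE 0.83, adjusted p = 2.31e-06), 4.19 for Cd6 (SE 0.72, adjusted p = 6.45e-07), 3.41 for Cd3e (SE 0.71, adjusted p = 8.15e-05), 3.29 for Cd3g (SE 0.74, adjusted p = 0.000399) and 3.19 for Cd3d (SE 0.67, adjusted p = 0.000116). For the kinases, the authors' deposited table gave 3.25 for Zap70 (SE 0.57, adjusted p = 1.67e-06) and 2.38 for Lck (SE 0.39, adjusted p = 1.14e-07). The other two, Lat at 1.10 (SE 0.49, adjusted p = 0.163) and Cd247 at 0.90 (SE 0.54, adjusted p = 0.365), were not called in the authors' deposited table. Behind these values stood, in the authors' deposited table, mean normalised counts between 41.9 for Ubash3a and 195 for Lck.

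In B16mhgp100 no gene of the set that could be tested passed the limma threshold between Aoah and Vector. Zap70 and Ubash3a did not reach 1 TPM in 4 libraries and were left out of the fit, and 0 of the 7 genes tested passed. Of all 14228 genes tested, 0% were called higher in Aoah and none lower. An unadjusted limma p under 0.05 was found for 350 of all genes, or 2.46%, and for 0 of the 7. That 0 is near the share over all genes. Weights per library called 5 genes of the whole table. Leaving out each tumour in turn called no gene of the set. The log2 differences were 0.26 for Cd3d (SE 0.34), 0.15 for Cd3e (SE 0.25), 0.03 for Cd3g (SE 0.32), -0.30 for Lck (SE 0.35) and -0.21 for Cd6 (SE 0.31). Without the library labelled B16mhgp100 Aoah 4 they were -0.01 for Cd3d, 0.02 for Cd3e, -0.05 for Cd3g, 0.05 for Lck and -0.06 for Cd6. The median of all genes was -0.20 in this comparison and -0.02 after median-of-ratios scaling, for which that library had a factor of 0.626.

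Lat and Cd247 were the 2 genes whose B16mhgp100 groups did not overlap, in opposite directions. Lat was higher in Aoah by 0.55 (SE 0.29, limma adjusted p = 0.694), with every Aoah tumour above every Vector tumour, as for 0.731% of genes tested. Cd247 was lower in Aoah, with a log2 difference of -0.71 (SE 0.36, limma adjusted p = 0.694), and every Aoah tumour lay below every Vector tumour, as for 5.15% of genes tested. Without the library labelled B16mhgp100 Aoah 4 the differences were 0.28 for Lat and -0.35 for Cd247. The authors' deposited table for B16mhgp100 called 0 of the 9 genes at an adjusted p under 0.05, among 3 of 20534 genes, or 0.0146%, called higher. In the authors' deposited table the log2 fold change of Lat was 1.28 (SE 0.60, unadjusted p = 0.0332, adjusted p = 0.809) and that of Cd247 was -0.63 (SE 0.42, adjusted p = 0.812). Zap70, untested above, had 0.87 in the authors' deposited table (SE 0.55, adjusted p = 0.812), and Ubash3a had -0.18 (SE 0.53, adjusted p = 0.934).

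**Figure D2:**
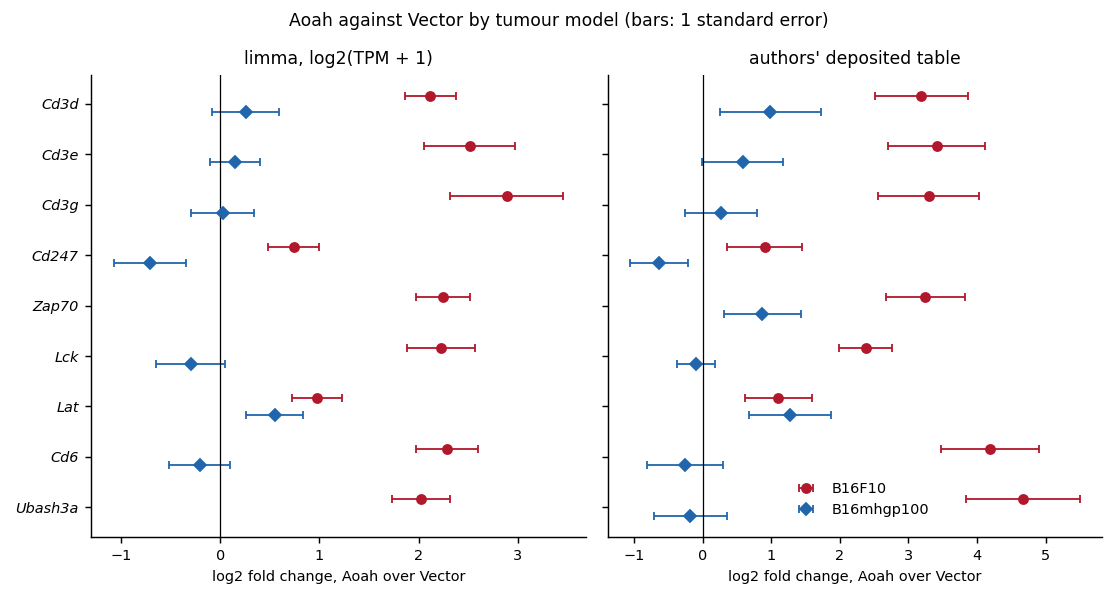
Log2 fold change of each gene, Aoah over Vector, in B16F10 (circles) and B16mhgp100 (diamonds), from limma on log2(TPM + 1) at the left and from the authors' deposited table at the right, with bars of 1 standard error. Zap70 and Ubash3a have no B16mhgp100 value at the left because they failed the filter. In B16F10 the differences at the left run from 0.74 for Cd247 to 2.89 for Cd3g, and in B16mhgp100 from -0.71 for Cd247 to 0.55 for Lat.

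The difference between the models in the effect of Aoah was tested directly, as the Aoah effect in B16mhgp100 minus the Aoah effect in B16F10, over all 12 libraries. All 9 genes had a value below 0. Over all 16556 genes, 38.5% had a value above 0 and the median was -0.16. Of the 9, 0 passed the adjusted threshold, among 4 of 16556 genes, or 0.0242%, called lower. The unadjusted limma p was under 0.05 for 8 of the 9, Lat being the exception. It was under 0.05 for 936 of all genes, or 5.65%, and 372 of these had a value above 0. The values nearest to the threshold were those of Ubash3a, at -2.14 (SE 0.32, limma adjusted p = 0.0639), and Zap70, at -1.98 (SE 0.35, adjusted p = 0.140). Ubash3a passed the filter of this fit only through the 2 B16F10 Aoah libraries, so for it a difference was built in. The value for Cd247 was -1.45 (SE 0.57, limma adjusted p = 0.832). Without the library labelled B16mhgp100 Aoah 4, Zap70 (adjusted p = 0.0279), Lck (adjusted p = 0.0303) and Ubash3a (adjusted p = 0.0303) passed the limma threshold. How many of all genes passed in that fit is not given, so these calls have nothing to be set against. Leaving out any other single tumour called 0 of the 9.

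Between the models themselves, B16mhgp100 minus B16F10 averaged over Aoah and Vector, 3 of the 9 genes were called lower, where 606 of 16556 genes, or 3.66%, were called lower. Lat was lower in B16mhgp100, with a log2 difference of -1.14 (SE 0.23, limma adjusted p = 0.0121), Zap70 had -0.92 (SE 0.17, adjusted p = 0.00986) and Ubash3a had -0.66 (SE 0.16, adjusted p = 0.0317). For Zap70 and Ubash3a this average rests on the B16F10 Aoah tumours, through which alone Ubash3a passed the filter. In Vector tumours alone, Zap70 averaged 0.833 ± 0.239 TPM in B16mhgp100 and 0.745 ± 0.247 TPM in B16F10, and Ubash3a averaged 0.538 ± 0.163 TPM in B16mhgp100 and 0.155 ± 0.134 TPM in B16F10 (SD, n = 4 and n = 2). For Lat the Vector tumours kept the direction, at 2.04 ± 0.359 TPM in B16mhgp100 and 4.76 ± 0.382 TPM in B16F10 (SD, n = 4 and n = 2). The calls of the set did not all hold without B16F10 Aoah 1, B16F10 Aoah 2 or B16F10 Vector 2, fits that leave a lone tumour in a group. Without the library labelled B16mhgp100 Aoah 4, 5 genes of the set were called, Cd3d and Cd3e among them. The share of all genes called in that fit is not given. The count over all genes moved widely when a tumour was left out, as given further below.

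The genes differed in how closely they followed Cd3e. Cd3g stayed between 1.00 and 2.57 times the TPM of Cd3e in all 12 libraries, and Ubash3a between 0.102 and 0.467 times. Cd3d ran from 0.354 to 3.12 times, Cd6 from 0.188 to 1.45 times and Zap70 from 0.413 to 2.19 times. Of the summed TPM of Cd3d, Cd3e and Cd3g, Cd3g made up a median of 52.5%, Cd3e 25.2% and Cd3d 19.5%. The share of Cd3d ran from 10.8% in B16F10 Vector 1 to 60.9% in B16F10 Vector 2. Lck, Cd247 and Lat were less far apart between the B16F10 groups than Cd3e. In B16F10 Vector 2, where Cd3e and Cd3g were each at 0.26 TPM, Lck was at 3.40, Cd247 at 2.86 and Lat at 4.49 TPM. The ratio of Lck to Cd3e was 3.80 and 2.20 in B16F10 Aoah tumours, against 4.40 and 13.1 in B16F10 Vector tumours. In B16mhgp100 that ratio ran from 1.80 to 10.9 in Aoah tumours and from 6.23 to 12.6 in Vector tumours. The ratio of Cd247 to Cd3e was 0.886 and 0.466 in B16F10 Aoah tumours, against 2.22 and 11.0 in B16F10 Vector tumours. The ratio of Lat to Cd3e was 1.39 and 0.887 in B16F10 Aoah tumours, against 3.18 and 17.3 in B16F10 Vector tumours. In the library labelled B16mhgp100 Aoah 4 the genes parted: Cd3d, Cd3e, Zap70 and Lat were the highest of the 8 B16mhgp100 libraries, while Cd247, Lck, Cd6 and Ubash3a were the lowest.

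**Figure D3:**
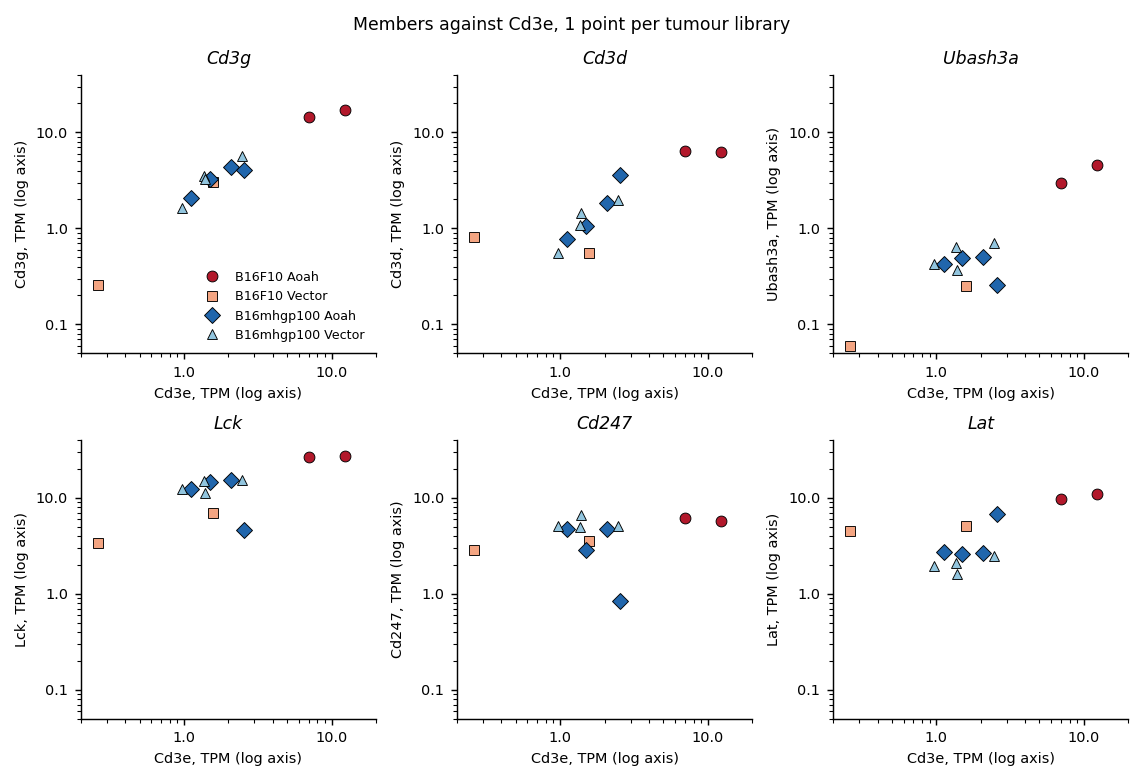
TPM of Cd3g, Cd3d, Ubash3a, Lck, Cd247 and Lat against TPM of Cd3e, both on log axes, with 1 point per library and symbols by group. Cd3g follows Cd3e over the whole range, whereas Lck, Cd247 and Lat stay at 2.86 TPM or more in B16F10 Vector 2, where Cd3e is at 0.26 TPM.

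As a description over 12 libraries, which share a group structure and the 2 high B16F10 Aoah tumours, the correlation of each gene's log2(TPM + 1) with the mean of the other 8 was 0.97 for Ubash3a, 0.97 for Cd3e, 0.94 for Cd3g, 0.93 for Cd6, 0.92 for Zap70, 0.85 for Cd3d, 0.74 for Lck, 0.59 for Lat and 0.33 for Cd247. Over the 10 libraries without B16F10 Aoah it was 0.93 for Cd3g, 0.85 for Cd3e, 0.83 for Cd6 and 0.82 for Ubash3a, but 0.53 for Lck, 0.38 for Cd3d, 0.35 for Zap70, -0.04 for Cd247 and -0.47 for Lat. The genes whose pattern was most like the mean of the 9, among 13559 compared, were Pdcd1 at a Pearson r of 0.98, Cd5, Cd8a, Tbx21, Cd8b1, Tox, H2-Eb2, Cd96, Septin1 and Lag3 at 0.95, and 33 genes were above 0.9. Pdcd1, which encodes PD-1, the receptor bound by the treatment antibody, was at 9.99 and 12.3 TPM in B16F10 Aoah tumours, against 0.80 and 0.19 TPM in B16F10 Vector tumours. The correlation of Pdcd1 without the B16F10 Aoah libraries was 0.91, and that of Lag3 was 0.62. Tbx21, Tox, H2-Eb2 and Cd96 passed the filter only through the B16F10 Aoah libraries, so for these a likeness was built in. Without those libraries their correlations were 0.73, 0.65, 0.63 and 0.72, in that order.

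The rest of the T cell receptor pathway was followed through a list of 34 genes, of which 33 were in the table. In B16F10, 29 were tested, 0 passed the adjusted limma threshold in either direction, 26 had a log2 difference above 0, 15 were higher at an unadjusted p under 0.05, where 10.9% of all genes were, and the median was 0.87 against 0.02 over all genes. Of the 29, 7 passed the filter only through the Aoah libraries and 19 reached 1 TPM in both Vector tumours, and 5 of these 19 were higher at an unadjusted p under 0.05. Among the 6 with the smallest p were Cd2, an adhesion receptor (2.15), Sh2d2a, an adaptor that binds Lck (2.24), Skap1, an adaptor of integrin activation (1.59), and Cd5, an inhibitory receptor (1.58). Skap1 and Cd5 passed the filter only through the Aoah libraries, so for these a difference was built in. Cd2 was at 12.2 and 12.1 TPM in B16F10 Aoah tumours, against 2.71 and 1.36 TPM in B16F10 Vector tumours. The authors' deposited table called 11 higher in B16F10 Aoah and 0 lower, of the 30 that had an adjusted p, where 4.65% of all genes were called higher. In B16mhgp100, 25 were tested, 0 passed, and 15 had a log2 difference above 0, as did 30.0% of all genes. The 6 with the smallest p were Skap1 (0.46), Sla (-0.71), Csk (-0.53), Sit1 (-0.36), Nfatc2 (-0.57) and Vav1 (0.67). Among the B16mhgp100 libraries, the one labelled B16mhgp100 Aoah 4 was lowest for Csk (37.6 TPM), Nfatc2 (9.44 TPM) and Sit1 (1.24 TPM). It was highest for Vav1 (20.1 TPM) and Skap1 (1.33 TPM). Differences without that library are not given for these pathway genes. The authors' deposited table called 0 of the 33 in B16mhgp100.

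Both chains of CD8, a coreceptor that brings Lck to the receptor, were called in B16F10. Of 7 constant regions and coreceptors tested, 2 were called higher in Aoah, where 0.289% of all genes were. Cd8a was higher in Aoah by 3.25 (SE 0.27, limma adjusted p = 0.0286) and Cd8b1 by 2.76 (SE 0.26, adjusted p = 0.0384). Cd8a was at 12.5 and 14.0 TPM in B16F10 Aoah tumours, against 0.64 and 0.36 TPM in B16F10 Vector tumours, and Cd8b1 at 7.87 and 9.72 TPM, against 0.46 and 0.42 TPM. Both passed the filter only through the Aoah libraries, as did 4 of the 7, so for these a difference was built in. Trbc2 (2.31), Trac (2.04), Trbc1 (1.74), Trgc2 (1.36) and Cd4 (1.25) did not pass in limma, and the authors' deposited table called Cd8a, Cd8b1, Trac, Trbc2 and Cd4 higher, 5 of the 6 with an adjusted p, where 4.65% of all genes were. In B16mhgp100, 0 of 6 tested passed. The defining NK receptor gene Ncr1 was at 0.21 and 0.15 TPM in B16F10 Aoah tumours, against 0 and 0.09 TPM in B16F10 Vector tumours. The 8 NK markers together summed to 14.6 and 19.6 TPM in B16F10 Aoah tumours, against 6.56 and 3.83 TPM in B16F10 Vector tumours. In B16mhgp100 these markers summed to between 8.90 and 20.7 TPM in Aoah tumours and to between 4.31 and 14.8 TPM in Vector tumours. The 8 macrophage and monocyte markers summed to 979 and 877 TPM in B16F10 Aoah tumours, against 503 and 476 TPM in B16F10 Vector tumours. Of these 8, 0 passed the adjusted limma threshold in B16F10, Csf1r and Ccr2 overlapped between the groups, and Ccr2 was the one with a log2 difference below 0 (-0.32). The 5 keratinocyte markers summed to 13.6 and 17.3 TPM in B16F10 Aoah tumours, against 0.47 and 16.3 TPM in B16F10 Vector tumours. Krt10 among them, which passed the filter only through the Aoah libraries, was called higher (3.11, limma adjusted p = 0.0384). Krt5, Krt14 and Krt15 averaged lower in B16F10 Aoah than in B16F10 Vector tumours, with overlapping groups. Krt1 was higher in Aoah but stayed under 1 TPM in all B16F10 libraries. The 5 skeletal muscle markers summed to 17.1 and 16.1 TPM in B16F10 Aoah tumours, against 18.2 and 167 TPM in B16F10 Vector tumours, and the 5 platelet and megakaryocyte markers to 17.9 and 18.1 TPM, against 27.1 and 48.9 TPM. The part of these cell types in the levels of the 9 genes was not tested.

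The repertoire counts are listed for the same 12 libraries, and the number of reads behind them is unknown. The genes were chosen with earlier results of these data known, so the counts are not taken as independent of that choice. The authors' table listed 30 and 32 T cell receptor beta clones in B16F10 Aoah tumours, against 2 and 1 in B16F10 Vector tumours. Clonotypes were a separate measure, with 20 and 21 beta clonotypes in B16F10 Aoah tumours, against 2 and 1 in B16F10 Vector tumours. The clone number was never below the clonotype number, so clones are not taken here as distinct receptors. In B16mhgp100 the authors' table listed 6, 6, 7 and 4 beta clones in Aoah tumours, against 5, 3, 8 and 3 in Vector tumours. The 2 B16F10 Aoah tumours were again apart from all others, and the B16mhgp100 groups overlapped. Alpha clones numbered 22 and 21 in B16F10 Aoah tumours, against 1 and 2 in B16F10 Vector tumours. Alpha clonotypes numbered 19 and 17 in B16F10 Aoah tumours, against 1 and 2 in B16F10 Vector tumours. Because the libraries fell into separate clusters, no correlation of Cd3e with clones over all 12 is given. Within the 8 B16mhgp100 libraries, the log2 values of Cd3e and of beta clones, each with 1 added, had a Pearson r of 0.134 (exact permutation p = 0.738, two-sided) and a Spearman rho of 0.048 (exact permutation p = 0.918). Without the 2 libraries farthest from the median of Cd3e, r was 0.515 (exact permutation p = 0.311). This was the only correlation tested with a p, and it was not past the threshold.

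**Figure D4:**
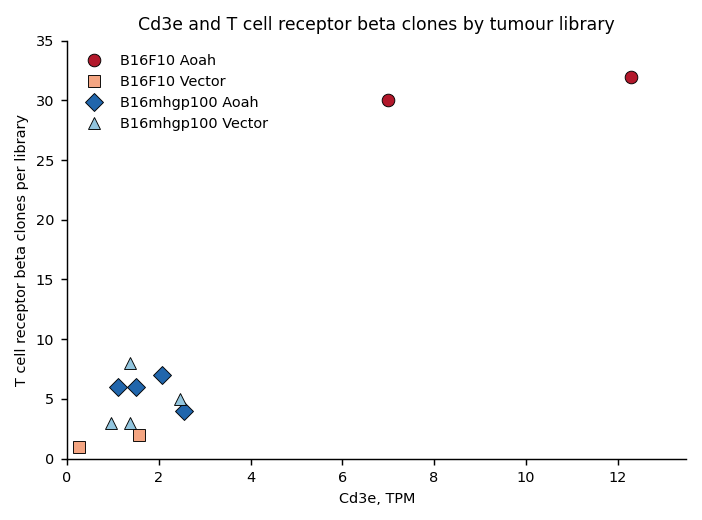
Number of T cell receptor beta clones per library against Cd3e in TPM, both on linear axes from 0, 1 point per tumour. Clones are the authors' clone measure and not their separate clonotype measure. The 2 B16F10 Aoah tumours, with 30 and 32 clones, lie apart from the other 10, which have between 1 and 8.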

How the data were processed

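Bulk polyA RNA of 12 tumours was analysed, grouped by the sample titles. The authors deposited expression as log2 values of TPM plus 1. Per the submitters' processing notes, the authors used RSEM and DESeq2, with build mm39. For versions and the strand setting, nothing is given in the sources used here. The authors deposited a table per model with mean normalised counts (a signal scaled by size factors), log2 fold changes, a test score and p-values, and a table of repertoire clones. The labels do not say whether each tumour had its own mouse. The p-values therefore cover only tumour-to-tumour spread, which may be technical.

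TPM was recovered by removing the pseudocount of 1, and log2(TPM + 1) was fitted with limma 3.58.1 in R 4.3.3, with a mean-variance trend, two-sided tests and Benjamini-Hochberg adjustment over all genes kept at 1 TPM in as many libraries as the smaller group has. The fit was tested on simulated data. Alternatives were a pseudocount of 0.1, no filter, median-of-ratios scaling, array weights, a replicate block, a spread shared over 12 libraries and leaving out each tumour. Without counts, no counting intervals were possible. The 9 genes and all lists were chosen with earlier results of these data known. All 9 genes are named. The other genes named are the 6 pathway genes with the smallest p in each model (some are not reported here), the constant regions and coreceptors, and the 10 most alike genes by Pearson r. Pdcd1 was picked from these 10 for its values, and Ncr1, Cd2, Krt10, Csf1r and Ccr2 were picked as examples, after the values were seen. The other keratinocyte markers are named to set beside Krt10. A planned correlation over 12 libraries is not given because they form separate clusters.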

Additional observations from a re-analysis of the deposited data

Results flagged for a closer look

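Some patterns within groups or between models stood out. In each group of 4, the gap of an extreme library to its nearest neighbour was compared with the range of the group, which by chance marks about 1 group in 20, and 18 such groups were examined. Cd247 in B16mhgp100 Vector tumours was marked for its highest library, at 6.58 TPM where the other 3 lay between 4.96 and 5.09 TPM. Lat in B16mhgp100 Aoah tumours was marked for its highest library, at 6.80 TPM in the library labelled B16mhgp100 Aoah 4, where the other 3 lay between 2.59 and 2.74 TPM. Cd247 was also marked because every Aoah tumour lay below every Vector tumour in B16mhgp100, with Aoah averaging 3.28 TPM and Vector 5.42 TPM, whereas every Aoah tumour lay above every Vector tumour in B16F10, with Aoah averaging 5.96 TPM and Vector 3.18 TPM. The test of that difference gave a limma adjusted p of 0.832.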

How the results depend on the processing

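Of 701 values of single genes under the alternatives, 589 kept their direction and side of the threshold, 82 moved past it, 12 fell short of it and 18 turned direction. In B16F10 the count of called genes was 50; it was 32 with a pseudocount of 0.1, 0 without the filter, 129 with scaling, 115 with array weights, 765 with the replicate block and between 234 and 3242 when a tumour was left out. The called genes of the set numbered 4 with scaling, 2 with array weights, 5 with the shared spread, 7 with the replicate block and between 3 and 8 with a tumour left out. In B16mhgp100 the count was 0 in all; it was 1 with a pseudocount of 0.1, 5 with array weights and between 0 and 1 with a tumour left out. For the difference between the Aoah effects it was 5, or 46 without the filter, 10 with scaling, 31 with array weights, 2 with the replicate block and between 1 and 45 with a tumour left out; of the set it was 1 without the filter, 1 with scaling, 2 with array weights and between 0 and 3 with a tumour left out. Between the models it was 1221, or 2135 with scaling, 4655 with array weights and between 391 and 5303 with a tumour left out; of the set it was 5 with array weights and between 0 and 5. Values that turned direction in B16mhgp100 were small: with array weights Cd3d -0.0391, Cd3g -0.00989 and Lck 0.12, and with a tumour left out Cd3d from -0.00939 to 0.44, Cd3g from -0.21 to 0.24 and Lck from -0.45 to 0.0539. Nfatc2 in B16F10 ran from -0.17 to 0.45. Between the models Lck was -0.0136 with scaling and ran from -0.20 to 0.23, and Cd247 was 0.0288 with array weights and ran from -0.20 to 0.0706. The correlation of Cd3e with beta clones ran from -0.20 to 0.33. The causes were not tested.

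Replicate numbers did not pair the tumours: same-numbered deviations correlated at -0.25, -0.29, 0.02 and -0.06 in B16mhgp100 and at -0.11 in B16F10. With the B16F10 numbers crossed, an alternative chosen after seeing the data, the block called 910 genes and 7 of the set, against 765 and 7 as numbered. Leaving out both libraries that stand apart, also chosen after seeing the data, left 8 genes of the set with both B16F10 Aoah libraries on top and 9 without overlap in B16F10. Only B16F10 Vector 1 then remained in its group, and no share over all genes is given for either count. Neither count is therefore read as a result about the set. Unknown depth limits what low TPM can show, above all for Ubash3a and Zap70 in B16mhgp100.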

Other observations

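In the library labelled B16mhgp100 Aoah 4, the constant region gene Trbc2 was at 19.2 TPM and Trbc1 at 5.88 TPM, levels close to those of the B16F10 Aoah tumours, at 15.5 and 19.9 TPM for Trbc2 and 4.75 and 5.03 TPM for Trbc1. The repertoire table listed 4 beta clones and 0 alpha clones for that library, against 30 and 32 beta clones and 22 and 21 alpha clones for the B16F10 Aoah tumours. Cd8a was at 1.39 TPM and Cd3e at 2.56 TPM in it, against 12.5 and 14.0 TPM for Cd8a and 6.99 and 12.3 TPM for Cd3e in the B16F10 Aoah tumours. Trbc1 and Trbc2 are near-identical, and how RSEM split their reads is uncertain. These genes were picked after their values were seen.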
